A study of Mus musculus with 9 samples.

Results

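The genes described here are 38 mouse symbols of glycolysis and of the response to low oxygen, followed through 9 RNA-seq libraries from sorted neural tube organoid cells. They were taken as every row of the count table whose Ensembl ID maps to a symbol of the list, which gave 39 of 54532 rows, because Aldoa maps to 2 IDs. Both Aldoa IDs are counted, so that there are 39 members. The list was chosen by a measured value: Ldha stood about 10-fold lower in replicate 2 of both groups grown in retinoic acid. The replicate pattern under retinoic acid is therefore given as a description with no test, and the comparisons between groups are tested.

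Glycolysis turns glucose into pyruvate in the cytosol. Glucose enters through carriers of the Slc2a family, lactate dehydrogenase converts pyruvate to lactate, and lactate leaves through carriers of the Slc16a family. Pyruvate dehydrogenase kinases inhibit pyruvate dehydrogenase and so hold pyruvate back from oxidation in the mitochondria. Many of these genes are targets of the hypoxia-inducible factors, whose alpha subunits Hif1a and Epas1 are marked for destruction by the oxygen-dependent prolyl hydroxylases Egln1 and Egln3. Pluripotent and early embryonic cells are known for strong glycolysis, which recedes as neural cells mature.

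All libraries came from R1 mouse embryonic stem cells, a single line with a FoxA2-Venus reporter, grown clonally into organoids inside Matrigel in N2B27 medium. FoxA2 is the transcription factor of the floor plate, the ventral midline of the neural tube, and Venus is a fluorescent protein read through a GFP filter set. The medium was changed at Day 2, and cells were sorted for high (GFP+) or low (GFP-) fluorescence 66 h later. There were 3 groups of 3 libraries: GFP- cells from all-trans retinoic acid medium (RA GFP-), GFP+ cells from the same medium (RA GFP+), and GFP+ cells from medium with SAG (SAG GFP+), an agonist of Smoothened in the hedgehog pathway. For RA, 1 source reads 250 nM and another 250 µM, and no dose of SAG is given. GFP- cells from SAG medium were not analysed here. The replicates are called biological, but nothing says how their cultures were kept apart, so p-values measure the spread between these samples.

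Total counts per library ran from 25281871 to 29763765. Values are CPM, counts relative to the library's total after TMM scaling between libraries, and all 39 members passed the filter on low counts. The sort labels matched their marker: Foxa2 read 1.33 to 2.51 CPM in RA GFP-, 133 to 184 CPM in RA GFP+ and 205 to 326 CPM in SAG GFP+. Of the other floor plate markers, Shh was at 0.0762 to 0.212 CPM in RA GFP-, and Corin was at or near 0 in all 9 libraries. Pluripotency markers (Zfp42, Esrrb, Nanog, Klf2, Tdgf1 and Pou5f1) summed to 681 to 1146 CPM in RA GFP-, 37.4 to 47.9 CPM in RA GFP+ and 63.4 to 229.6 CPM in SAG GFP+.

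The lactate dehydrogenase subunits behaved unlike each other. Ldha, the subunit that favours lactate formation, read 1093, 137 and 1408 CPM in replicates 1, 2 and 3 of RA GFP-, and 930.2, 116 and 1365 CPM in RA GFP+. Its highest library stood 10.3-fold above its lowest in RA GFP- and 11.7-fold in RA GFP+, with replicate 2 the lowest in both. In SAG GFP+ it read 666, 1350 and 1403 CPM, so there replicate 1 was the lowest and replicate 2 was not. Ldhb, the heart-type subunit, read 155.5, 138 and 153 CPM in RA GFP-, 34.2, 47.9 and 58.4 CPM in RA GFP+, and 44.9, 21.0 and 21.6 CPM in SAG GFP+. Its replicates lay close together in RA GFP-, and no RA GFP+ or SAG GFP+ library reached the RA GFP- range. In these bulk samples, fewer cells of a type and less RNA per cell cannot be told apart. Ldha has 4 near-identical copies in the genome, which together held 0.936% of its counts.

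Bnip3 and Slc16a3 swung as far as Ldha. Bnip3, a mitochondrial protein that promotes the removal of mitochondria, read 81.6, 10.4 and 118 CPM in RA GFP-, 51.3, 7.73 and 108 CPM in RA GFP+, and 14.8, 82.9 and 143.5 CPM in SAG GFP+. Slc16a3, the carrier that exports lactate from glycolytic cells, read 129.7, 18.4 and 200.6 CPM in RA GFP-, 163.7, 26.4 and 263 CPM in RA GFP+, and 56.2, 157 and 161 CPM in SAG GFP+. Both had replicate 2 lowest in each RA group, replicate 3 highest, and replicate 1 lowest in SAG GFP+. The smallest swings belonged to Slc16a1 and Pfkm. Slc16a1, the lactate carrier with a broad distribution, read 161, 139.8 and 139 CPM in RA GFP-, 218, 218 and 224 CPM in RA GFP+, and 169, 168 and 139 CPM in SAG GFP+. Pfkm, the muscle-type phosphofructokinase, read 69.0, 67.0 and 91.4 CPM in RA GFP-, 64.8, 67.0 and 74.6 CPM in RA GFP+, and 57.2, 69.1 and 76.6 CPM in SAG GFP+. The RA GFP+ libraries of Slc16a1 stood above all libraries of the other groups, whereas the groups of Pfkm overlapped.

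The 250 bases before the start of these 5 genes are shown because the 3 with the widest and the 2 with the narrowest swing can be read side by side. Sequences are from RefSeq (GRCm38.p6), given 5′ to 3′ on the gene's strand, with capitals marking the core of the hypoxia response element, ACGTG or GCGTG, on either strand (so also CACGT or CACGC). The letters CACGTG hold the core on both strands and count as 2 matches.
Ldha, chr7:46845554-46845803, plus strand: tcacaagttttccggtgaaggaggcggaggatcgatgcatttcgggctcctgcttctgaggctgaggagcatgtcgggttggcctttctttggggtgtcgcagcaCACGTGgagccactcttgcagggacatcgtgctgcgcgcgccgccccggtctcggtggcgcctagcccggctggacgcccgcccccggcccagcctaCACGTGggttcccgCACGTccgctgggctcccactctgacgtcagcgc
Bnip3, chr7:138909507-138909756, minus strand: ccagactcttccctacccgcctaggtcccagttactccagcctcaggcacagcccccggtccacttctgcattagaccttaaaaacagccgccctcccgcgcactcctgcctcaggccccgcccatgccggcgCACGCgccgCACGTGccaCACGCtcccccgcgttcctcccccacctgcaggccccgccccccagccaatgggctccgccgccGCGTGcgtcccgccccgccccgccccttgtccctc
Slc16a3, chr11:120948817-120949066, plus strand: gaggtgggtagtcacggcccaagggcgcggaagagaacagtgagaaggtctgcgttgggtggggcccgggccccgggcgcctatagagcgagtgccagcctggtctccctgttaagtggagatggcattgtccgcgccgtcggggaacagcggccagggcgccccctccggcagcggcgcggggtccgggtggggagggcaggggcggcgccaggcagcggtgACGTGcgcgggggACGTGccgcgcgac
Slc16a1, chr3:104638414-104638663, plus strand: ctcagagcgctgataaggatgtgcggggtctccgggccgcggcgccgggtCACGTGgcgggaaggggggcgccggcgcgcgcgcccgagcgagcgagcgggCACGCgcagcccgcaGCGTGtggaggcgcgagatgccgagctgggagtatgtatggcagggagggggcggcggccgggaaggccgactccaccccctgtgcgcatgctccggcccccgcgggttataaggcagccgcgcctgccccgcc
Pfkm, chr15:98092339-98092588, plus strand: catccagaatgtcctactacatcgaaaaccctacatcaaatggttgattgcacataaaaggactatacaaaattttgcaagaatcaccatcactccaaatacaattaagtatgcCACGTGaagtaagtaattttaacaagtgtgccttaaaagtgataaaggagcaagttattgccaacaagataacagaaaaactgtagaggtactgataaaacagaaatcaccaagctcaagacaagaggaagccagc
Ldha and Bnip3 each held 5 matches, Slc16a1 held 4, and Slc16a3 and Pfkm held 2. Slc16a1 and Pfkm, with the narrowest swings, held such letters too. RefSeq windows were matched for 35 of the 38 symbols, and 28 of the 35 (80.0%) held at least 1 match, beside 38.6% of all 32851 windows of the same length. The member windows were also richer in G and C, with a median of 62.8% against 52.4%. A match describes the letters only, not a site in use. The Ldha and Slc16a3 windows lie inside the span of the annotated gene (chr7:46841475-46855627 and chr11:120948480-120960868), ahead of a downstream transcript start, and the other windows lie at the outer start of their genes.

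**Figure D1:**
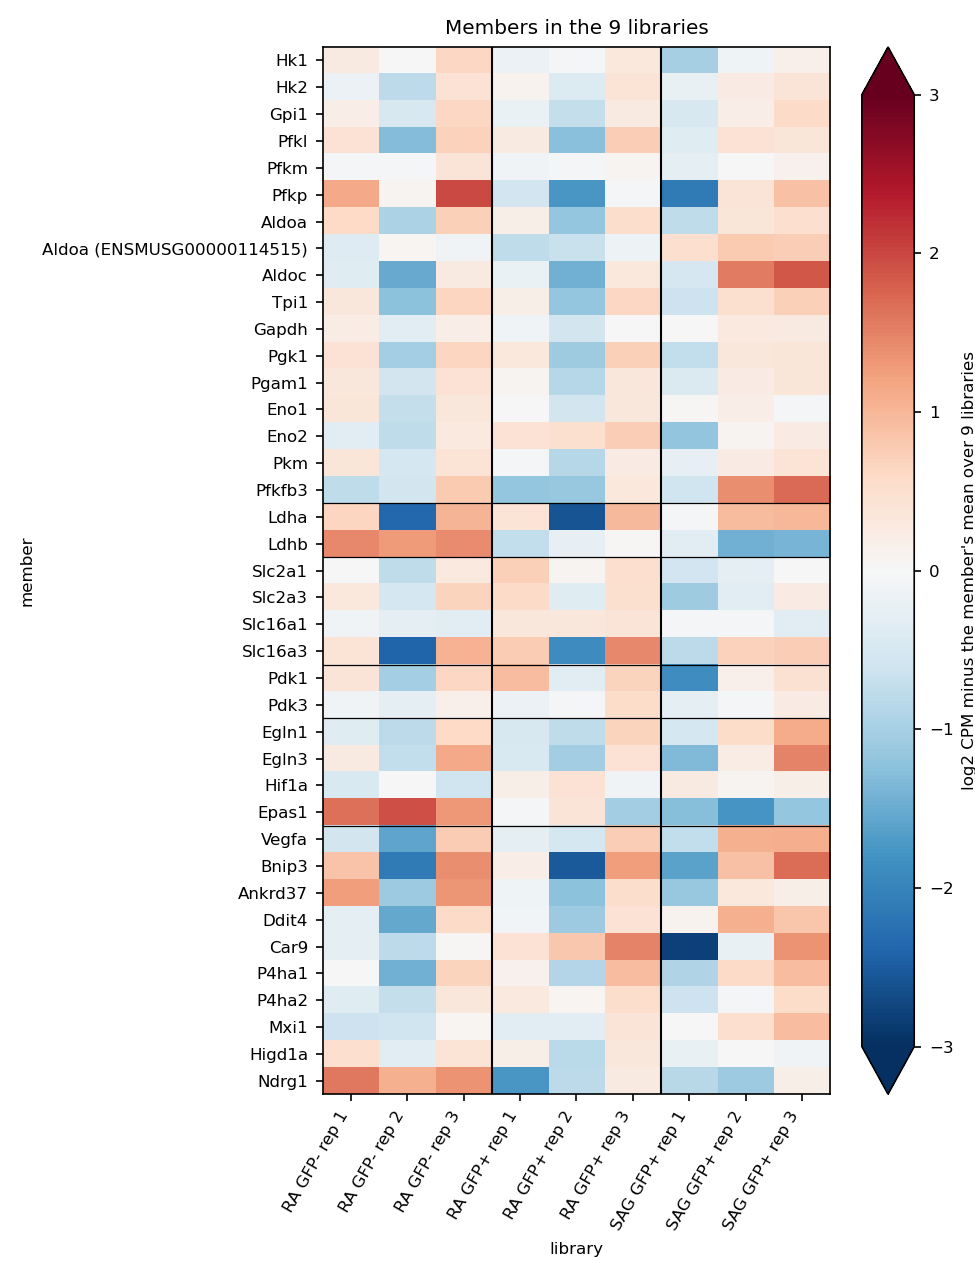
With members as rows, ordered by role, and libraries as columns, colour gives log2 CPM minus the member's mean over the 9 libraries, from -3 (blue) to 3 (red). Replicate 2 of both RA groups and replicate 1 of SAG GFP+ are blue for most glycolytic and hypoxia genes, and Ldhb, Epas1 and Ndrg1 are red in RA GFP- instead.

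Replicate 2 was the lowest of its group in both RA groups for 26 of the 39 members, beside 13.1% of all 16772 tested genes. It stood at least 2-fold below each other replicate, in both groups, for 13 members, beside 0.298% of tested genes. Those 13 were Pfkl, Pfkp, Aldoa, Aldoc, Tpi1 and Pgk1 of glycolysis, Ldha, the lactate carrier Slc16a3, the kinase Pdk1, and the hypoxia genes Bnip3, Ankrd37, Ddit4 and P4ha1. By group, the 2-fold count was 16 members in RA GFP- (background 1.99%) and 14 in RA GFP+ (background 1.21%). Eno1, Vegfa and Egln3 met it in RA GFP- alone and Higd1a in RA GFP+ alone. The median member stood at -0.91 in RA GFP- and -0.76 in RA GFP+ on the log2 scale, as replicate 2 against the mean of replicates 1 and 3, while the median tested gene stood at 0.01 and 0.02. These shares follow from how the list was chosen and are read no further. Replicate 3 was the highest library for most members in both RA groups, and replicate 1 minus replicate 3 had a median over the members of -0.32 log2 in RA GFP- and -0.47 in RA GFP+.

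Along the glycolytic chain the swing was unequal from step to step. Pfkl, the liver-type phosphofructokinase that commits sugar to glycolysis, read 465, 140.3 and 562 CPM in RA GFP-, 419.9, 144 and 576.5 CPM in RA GFP+, and 269.7, 465 and 449 CPM in SAG GFP+. Tpi1, triosephosphate isomerase, read 649.7, 221.5 and 812 CPM in RA GFP-, 581.5, 230.5 and 798 CPM in RA GFP+, and 335, 724 and 853 CPM in SAG GFP+. The same library was lowest in each group for both enzymes, and the 3 groups overlapped throughout. Pfkp, the platelet-type phosphofructokinase, shared this swing but not the overlap, at 111, 54.1 and 200.7 CPM in RA GFP-, 33.9, 15.2 and 49.5 CPM in RA GFP+, and 11.7, 66.9 and 92.7 CPM in SAG GFP+. Each RA GFP+ library was below every RA GFP- library. Part of the Pfkp exons (5.58% of bases) overlaps Pitrm1 on the opposite strand.

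Hk1, the hexokinase of most tissues, swung less than Ldha in the RA groups but not in SAG GFP+, at 73.5, 61.7 and 93.6 CPM in RA GFP-, 54.2, 58.3 and 75.6 CPM in RA GFP+, and 30.6, 55.9 and 68.4 CPM in SAG GFP+. Replicate 2 was not its lowest RA GFP+ library. The second ID that maps to Aldoa, ENSMUSG00000114515, held few reads, at 2.01, 2.78 and 2.47 CPM in RA GFP-, 1.53, 1.65 and 2.37 CPM in RA GFP+, and 3.83, 4.61 and 4.48 CPM in SAG GFP+. All 3 SAG GFP+ libraries stood above the 6 RA libraries there. It lies at chr7:126800790-126809108, next to the main Aldoa ID at chr7:126795234-126800751 on the same strand. That main ID, the muscle-type aldolase, spanned 701 to 2229 CPM in RA GFP- and 605.8 to 1930 CPM in RA GFP+. Per kb of exon, Aldoa and Pkm (pyruvate kinase, the last step of the chain) had the highest mean levels of all members in RA GFP-, at 570.2 ± 287 and 538 ± 173 CPM per kb (SD, n = 3). Those ranges overlap, and Gapdh followed at 289.7 ± 57.1 CPM per kb (SD, n = 3).

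Gapdh, a gene often used as a reference, varied less than its neighbours in the chain, with replicate 2 at 925 CPM against 1340 and 1327 CPM in RA GFP-, and at 784 CPM against 1078 and 1173 CPM in RA GFP+. It was still the lowest library in each RA group, and its deviations followed those of Ldha with Pearson's r = 0.98 over the 9 libraries (log2 CPM minus the group mean, a description whose points share libraries). Gapdh has 78 near-identical copies that held 3.89% as many counts. Eno1, alpha-enolase, is uncertain because its copies, mostly Eno1b, held 26.1% as many counts.

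**Figure D2:**
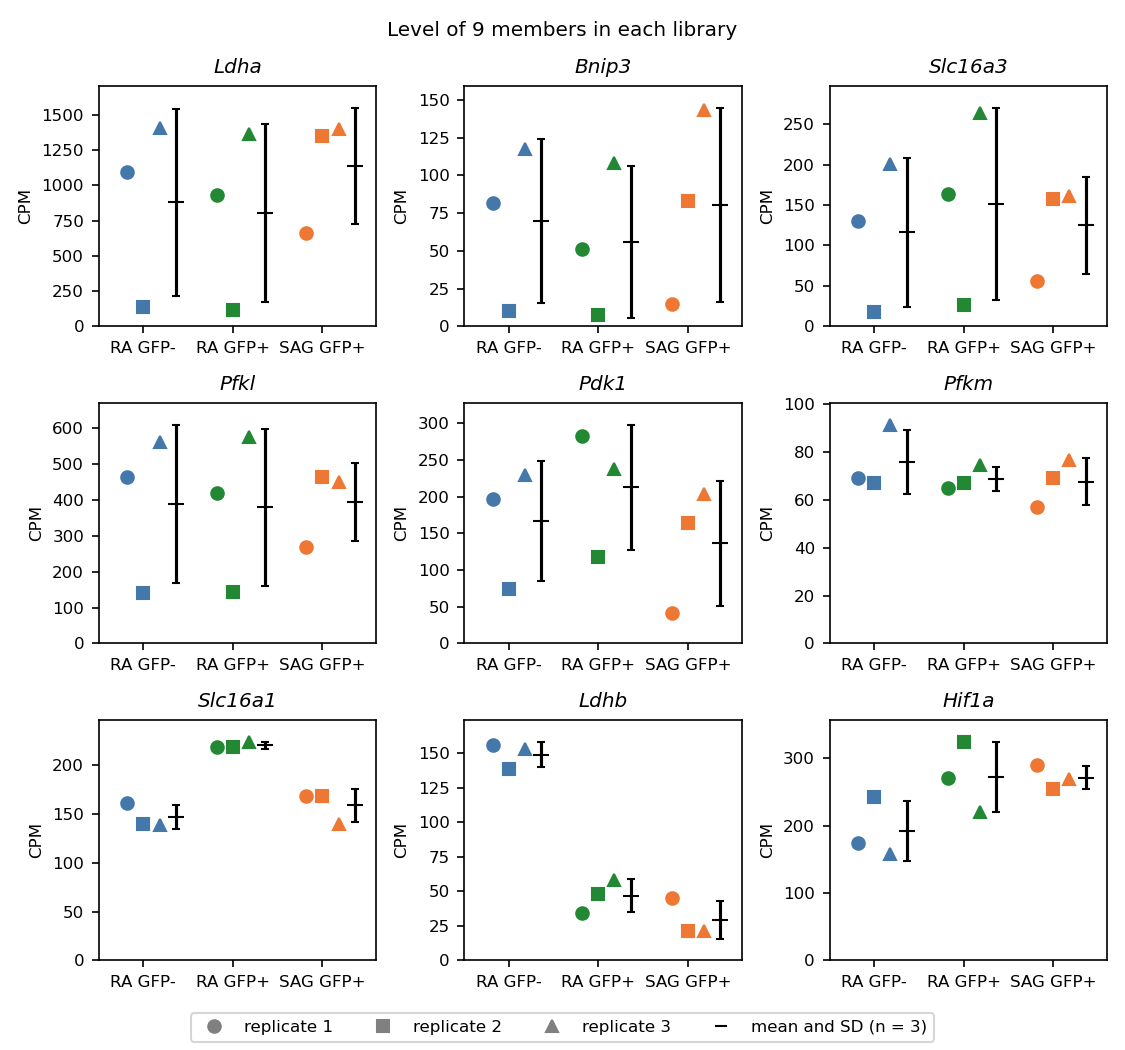
Each panel shows the CPM of a member (axis from 0) in the 9 libraries, by group on the horizontal axis, where symbols mark the replicate number and bars the mean and SD (n = 3). Ldha, Bnip3, Slc16a3 and Pfkl share the low replicate 2 of both RA groups, Slc16a1 is highest in RA GFP+ and Ldhb in RA GFP-, and Hif1a is highest in replicate 2 of both RA groups.

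Among the carriers and the pyruvate dehydrogenase kinases, isoforms differed. Slc2a1, the main glucose carrier of embryonic cells, read 1055, 615 and 1268 CPM in RA GFP-, 1722, 1104 and 1487 CPM in RA GFP+, and 702, 849 and 1040 CPM in SAG GFP+. Its 3 lowest libraries in their groups were the same as for Ldha, but the RA swing was 2.06-fold in RA GFP- and 1.56-fold in RA GFP+. Slc2a3, the neuronal-type glucose carrier, spanned 583.6 to 1346 CPM in RA GFP- and 651 to 1246 CPM in RA GFP+, with replicate 2 lowest in both. Pdk1, a hypoxia-induced kinase, read 196, 73.9 and 230.1 CPM in RA GFP-, 282, 118 and 238 CPM in RA GFP+, and 41.0, 164.5 and 203 CPM in SAG GFP+. Pdk3 stayed within 49.0 to 66.2 CPM in RA GFP- and 52.3 to 86.4 CPM in RA GFP+.

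The oxygen-sensing genes split into hydroxylases, which followed Ldha, and alpha subunits, which ran the other way. Hif1a read 174, 243 and 158.5 CPM in RA GFP-, 271, 325 and 221 CPM in RA GFP+, and 290.0, 255 and 270.2 CPM in SAG GFP+. Epas1, which encodes HIF-2alpha, read 22.5, 27.3 and 17.7 CPM in RA GFP-, 6.86, 9.28 and 3.38 CPM in RA GFP+, and 2.89, 2.02 and 3.15 CPM in SAG GFP+. Both had replicate 2 highest and replicate 3 lowest in each RA group, the reverse of Ldha, with r = -0.95 for Hif1a and -0.73 for Epas1 against the deviations of Ldha over 9 libraries. Egln1 read 76.2, 56.8 and 147.6 CPM in RA GFP-, and Egln3, a hydroxylase that hypoxia itself induces, read 22.8, 11.3 and 42.1 CPM there. Both hydroxylases also had replicate 2 lowest in RA GFP+.

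The remaining hypoxia genes mostly shared the swing. Ankrd37, a small ankyrin-repeat gene induced by HIF-1, read 9.74, 1.87 and 10.3 CPM in RA GFP-, 3.68, 1.68 and 5.89 CPM in RA GFP+, and 1.79, 5.02 and 4.56 CPM in SAG GFP+. P4ha1, a collagen prolyl hydroxylase, read 85.3, 31.2 and 133 CPM in RA GFP-, 91.8, 45.7 and 160.6 CPM in RA GFP+, and 44.8, 125 and 161 CPM in SAG GFP+. In both genes the groups overlapped and the lowest libraries were again RA replicate 2 and SAG GFP+ replicate 1. Ddit4, an mTORC1 inhibitor, read 193.7, 81.7 and 356 CPM in RA GFP-, 225, 112 and 324 CPM in RA GFP+, and 255, 499 and 425 CPM in SAG GFP+. Vegfa, the endothelial growth factor, read 54.8, 26.8 and 135 CPM in RA GFP-, 66.6, 55.7 and 133 CPM in RA GFP+, and 47.7, 166.7 and 169 CPM in SAG GFP+. Replicate 2 of RA GFP+ lay only just below replicate 1 for Vegfa. Car9, the membrane carbonic anhydrase, was barely detected, with 0 counts in SAG GFP+ replicate 1 (which allows up to 0.122 CPM at 3 counts, counting error only) and at most 1.40 CPM elsewhere.

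In SAG GFP+ the low library was replicate 1. It was the lowest of its group for 33 of 39 members, beside 40.5% of tested genes, and at least 2-fold below each other replicate for 17 members, beside 4.62% of tested genes. Those 17 were the genes that met the 2-fold mark in both RA groups, except Pfkl and Ddit4, together with Eno2, Vegfa, Egln1, Egln3, Car9 and Pfkfb3. SAG GFP+ replicate 2 met the 2-fold mark for 0 members (background 1.53%), and the median member stood at 0.27 there on the log2 scale against the mean of replicates 1 and 3. Bnip3 in SAG GFP+ replicate 1 read 14.8 CPM, against 10.4 and 7.73 CPM in replicate 2 of the RA groups, and Ldha in that library read 666 CPM, against 137 and 116 CPM.

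Splitting the variation of log2 CPM over the 6 RA libraries into a share between replicate numbers, a share between sorts and a remainder put numbers on these patterns. The replicate share was above 50% for 30 of 39 members, beside 37.06% of all tested genes, and its median was 86.2% for members and 37.0% for all genes. It reached 99.7% for Pfkl, 99.6% for Ldha and 97.9% for Bnip3. The sort share was above 50% for 8 members, Slc16a1 (94.7%), Ldhb (93.1%), Epas1 (80.4%), Ndrg1 (75.2%), Car9 (72.1%), Eno2 (61.7%), Pfkp (60.9%) and Hif1a (51.9%), beside 39.04% of all genes. The replicate share rests on the pattern for which the list was drawn up.

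**Figure D3:**
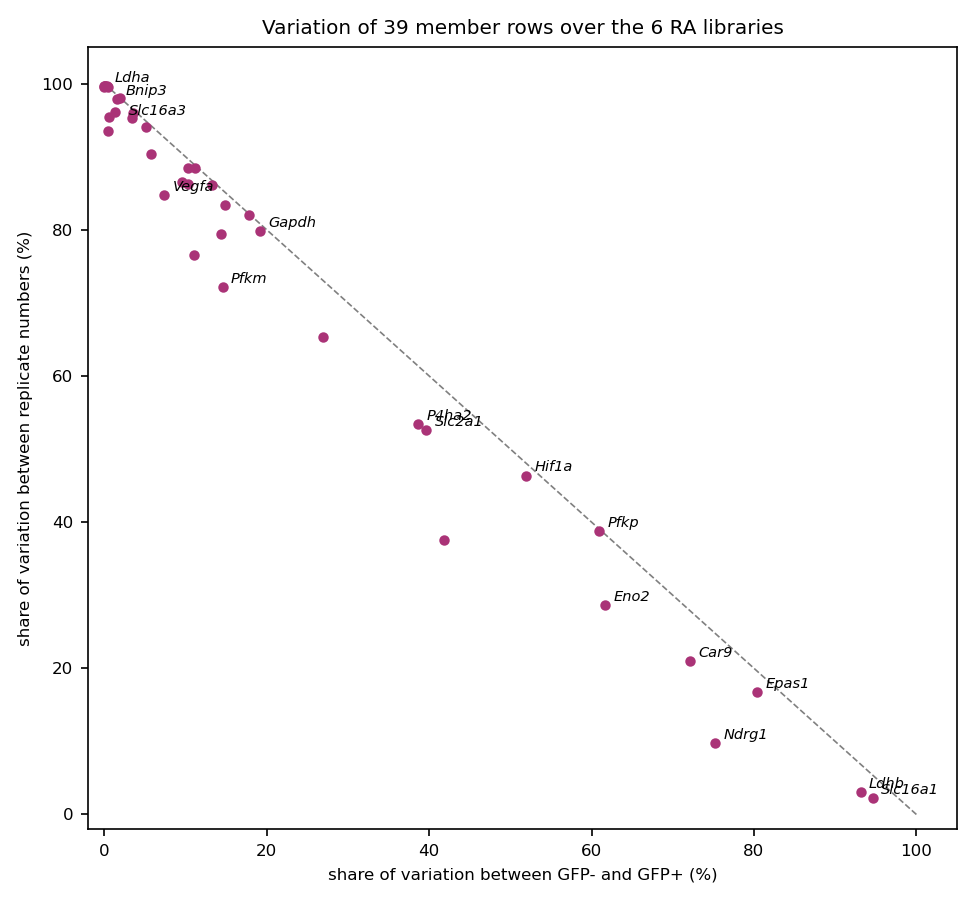
Each point is a member, placed by the share of its variation over the 6 RA libraries that lies between GFP- and GFP+ (horizontal, %) and between replicate numbers (vertical, %), with a dashed line at a sum of 100%. Most members lie at the upper left with Ldha, and Slc16a1 and Ldhb lie at the lower right.

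Likeness to Ldha was measured as Pearson's r between deviations from the group means of log2 CPM over the 9 libraries. Of the other 38 members, 14 (36.84%) had r of at least 0.9, and 3 had a negative r. Of the 16771 tested genes other than Ldha, members included, 114 (0.68%) had r of at least 0.9. The count for members rests on the pattern for which the list was drawn up and is read no further. Outside the list, among genes with a mean of at least 5 CPM, the 10 closest were Gm11814, Tmem159, Ap3b2, Gm6560, Grhpr, Miip, Trappc6a, Pla2g12a, Pecr and Arfip1, with r from 0.999 down to 0.954. Gm11814, a near-identical copy of Ldha, had the highest value and is uncertain, since reads of the copies can be split between them. Grhpr, which encodes glyoxylate and hydroxypyruvate reductase, read 65.0, 25.0 and 57.9 CPM in RA GFP-, 47.7, 23.3 and 55.5 CPM in RA GFP+, and 29.6, 50.5 and 47.1 CPM in SAG GFP+. Its lowest libraries were the same 3 as for Ldha, with a smaller swing.

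The first comparison between groups set GFP+ cells beside GFP- cells under RA. Slc16a1 was higher in GFP+ cells, and Ldhb, Epas1 and Ndrg1 were lower. These 4 of 39 members passed the test, 1 higher and 3 lower, beside 16.9% of all 16772 tested genes (8.49% higher and 8.43% lower). The log2 fold change was 0.59 for Slc16a1 (SE 0.114, adjusted p = 0.00452, edgeR's quasi-likelihood test with Benjamini-Hochberg adjustment over all tested genes). For Ldhb it was -1.67 (SE 0.278, adjusted p = 0.00182) and for Epas1 -1.79 (SE 0.336, adjusted p = 0.00376). Ndrg1, a stress- and differentiation-linked gene, read 17.5, 12.2 and 14.9 CPM in RA GFP- against 1.69, 3.36 and 6.98 CPM in RA GFP+, with 3.26, 2.70 and 6.62 CPM in SAG GFP+. The RA groups did not overlap, and the log2 fold change was -1.89 (SE 0.468, adjusted p = 0.0164). The median log2 fold change was -0.06 over the members and -0.02 over all genes.

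Just outside the threshold lay Hif1a, at 0.50 (SE 0.175, adjusted p = 0.0727) and Pfkp, at -1.89 (SE 0.661, adjusted p = 0.0746). Ldha differed by -0.13 (SE 0.795, adjusted p = 0.938), a difference far inside its spread between replicates. With replicate 1 of RA GFP- left out, Ndrg1 missed the threshold (adjusted p = 0.0576), and likewise with replicate 2 of RA GFP+ left out (0.0722). Hif1a passed it without replicate 2 of RA GFP- (log2 0.71, adjusted p = 0.0187) or replicate 3 of RA GFP+ (0.64, 0.0377), and Pfkp without replicate 1 of SAG GFP+ (-1.89, 0.0156). Slc16a1 and Ndrg1 missed it (adjusted p = 0.0653 and 0.106) when the 3 libraries low in Ldha, replicate 2 of both RA groups and replicate 1 of SAG GFP+, were left out, a choice made after seeing the data. Both also missed it with replicate 2 of all 3 groups left out (adjusted p = 0.135 and 0.134).

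Replicate numbers tied the RA libraries together: over all tested genes, same-numbered RA GFP- and RA GFP+ libraries deviated from their group means in parallel (r = 0.273, 0.307 and 0.347). Each other pairing gave a negative r, but deviations cancel within each group, so the negative values follow in part from the positive ones. With the replicate number as a block in the 6 RA libraries, 22 of 39 members passed, 10 higher and 12 lower in GFP+ cells, beside 32.2% of 16257 tested genes (16.1% in each direction). The 4 genes above were among them. The block removes differences between replicate numbers, the pattern for which the list was drawn up. The member counts with and without the block may therefore follow in part from that choice. Pfkp was lower in GFP+ cells by -1.71, -1.83 and -2.02 in the 3 same-numbered pairs (blocked log2 fold change -1.86, SE 0.100, adjusted p = 7.94e-07). Hif1a was higher in every pair, by 0.64, 0.42 and 0.48 (blocked 0.51, adjusted p = 0.0015). Hif1a and Epas1, the alpha subunits, thus moved in opposite directions with the sort.

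Carriers and enzymes were both among the members called with the block. Slc2a1 was higher in GFP+ cells by 0.71, 0.84 and 0.23 in the 3 pairs (blocked 0.59, adjusted p = 0.00275), and Slc16a3 by 0.34, 0.52 and 0.39 (blocked 0.41, adjusted p = 0.0055). With Slc16a1, 3 of the 4 carriers were higher, and Slc2a3 did not pass (0.07, adjusted p = 0.649). Pfkfb3, the enzyme that makes the activator of phosphofructokinase, was lower by -0.39, -0.60 and -0.48 (blocked -0.49, adjusted p = 0.00545), and Egln3 was lower in all 3 pairs (blocked -0.59, adjusted p = 0.00718). Of the other members, Eno2, Pdk1, Car9, P4ha1, P4ha2 and Mxi1 were higher, and Gpi1, Aldoa, Gapdh, Pkm, Bnip3 and Ankrd37 were lower, with blocked log2 fold changes from -0.84 to 1.43. Mxi1, P4ha1, Car9 and Gapdh passed narrowly in the blocked fit (adjusted p = 0.0498, 0.0486, 0.0473 and 0.0433). The blocked calls were not recomputed with libraries left out. Ldha remained outside the threshold (-0.17, SE 0.0865, adjusted p = 0.157), although its pairs were -0.23, -0.24 and -0.04.

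**Figure D4:**
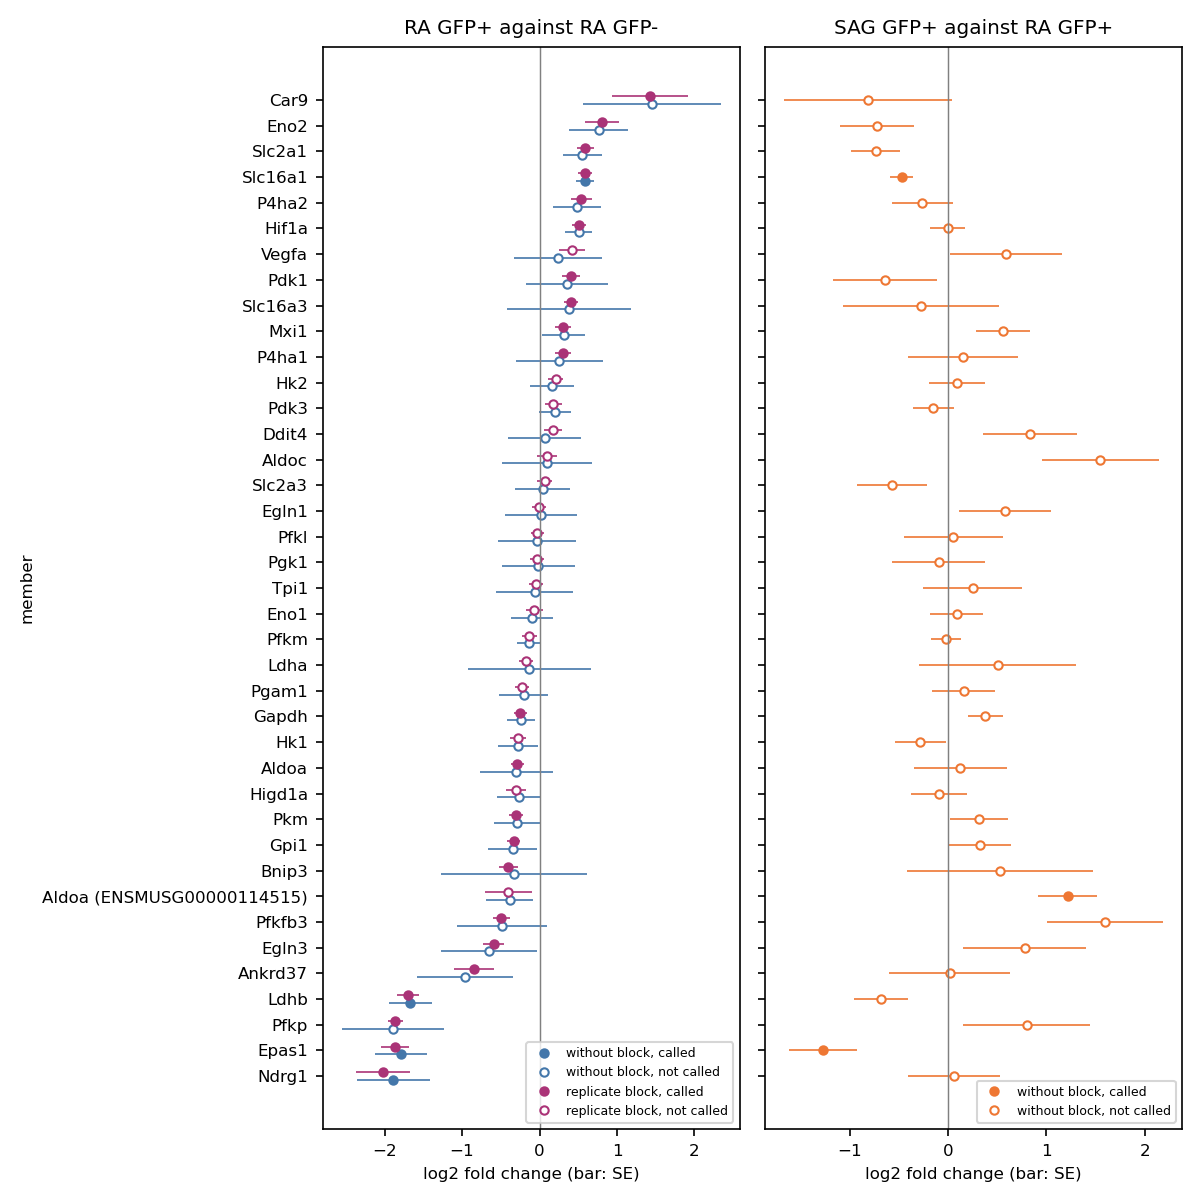
Members are listed from the highest to the lowest log2 fold change of RA GFP+ against RA GFP-, with bars for the SE and filled points where the adjusted p was under 0.05, for that comparison without (blue) and with (purple) the replicate block (left) and for SAG GFP+ against RA GFP+ (right). With the block the fold changes stay nearly in place, the bars are shorter, and 22 members pass in place of 4.

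The second comparison set GFP+ cells from SAG medium beside GFP+ cells from RA medium. Slc16a1 and Epas1 were lower under SAG, and the second Aldoa ID was higher. These 3 of 39 members passed, 1 higher and 2 lower, beside 24.5% of tested genes (9.78% higher and 14.8% lower). Slc16a1 had a log2 fold change of -0.47 (SE 0.114, adjusted p = 0.0106, edgeR's quasi-likelihood test with Benjamini-Hochberg adjustment). Epas1 had -1.27 (SE 0.346, adjusted p = 0.0194), and Aldoa ENSMUSG00000114515 had 1.22 (SE 0.298, adjusted p = 0.0116). In each of the 3 the SAG and RA GFP+ libraries did not overlap. Both comparisons use the RA GFP+ libraries: Slc16a1 was higher in them than in either other group, while Epas1 was lower in GFP+ than in GFP- cells under RA and lower again under SAG.

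Slc2a1 lay just outside the threshold at -0.73 (SE 0.250, adjusted p = 0.0516), and Pfkfb3, which read 26.3, 30.6 and 77.3 CPM in RA GFP-, 20.0, 20.2 and 55.6 CPM in RA GFP+, and 29.6, 116.5 and 144 CPM in SAG GFP+, at 1.6 (SE 0.589, adjusted p = 0.0695). All SAG GFP+ libraries of Slc2a1 were below all RA GFP+ libraries, whereas those of Pfkfb3 overlapped through SAG GFP+ replicate 1. The number of members that passed was 7 without replicate 1 of SAG GFP+, beside 4972 of 17408 genes. It was 5 without replicate 3 of RA GFP- (beside 4254 of 17289 genes) and 1 without replicate 1 of RA GFP+ (beside 2834 of 17368 genes). The second Aldoa ID missed the threshold without replicate 1 (adjusted p = 0.0548) or 2 (0.0543) of RA GFP+. Epas1 did so without replicate 1 (0.0532) or 2 (0.0977) of RA GFP+, or replicate 2 of SAG GFP+ (0.0855). Slc2a1 passed without replicate 2 (0.0185) or 3 (0.037) of RA GFP-, or replicate 2 of RA GFP+ (0.0407). With replicate 2 of all 3 groups left out, none of the 3 genes called above passed (adjusted p = 0.137 for Slc16a1, 0.203 for the second Aldoa ID and 0.329 for Epas1, whose log2 fold change was then -0.76), and Slc2a1 did (0.0482). The 3 genes also missed the threshold without the 3 libraries low in Ldha (0.0552, 0.0641 and 0.129), where Slc2a1 passed (0.0163). Pfkfb3 passed without replicate 3 of RA GFP- (0.0499), replicate 3 of RA GFP+ (0.0234) or replicate 1 of SAG GFP+ (0.0109).

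Genes around the members were taken from 12 lists. Among 27 other HIF targets, replicate 2 was lowest in both RA groups for 20, beside 13.1% of all tested genes. SAG GFP+ replicate 1 was lowest for 23 of them, beside 40.5% of all tested genes. Fam162a, a mitochondrial HIF-1 target, read 107.7, 37.8 and 131 CPM in RA GFP-, 100.9, 36.6 and 139.7 CPM in RA GFP+, and 52.1, 89.9 and 153 CPM in SAG GFP+. Bhlhe40, a transcriptional repressor, read 9.92, 4.27 and 37.9 CPM in RA GFP-, 11.3, 3.13 and 40.9 CPM in RA GFP+, and 5.70, 38.4 and 51.9 CPM in SAG GFP+. Both genes were chosen after their values were seen. Hmox1, Wsb1, Cited2, Gbe1, Insig2, Lox and Plod1 of that list did not have replicate 2 lowest in both groups. The 7 serine and one-carbon genes all did, with a median log2 ratio of -0.50 in RA GFP- and -0.27 in RA GFP+.

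Of the mitochondrial lists, replicate 2 was lowest in both RA groups for 3 of 17 TCA cycle genes, 2 of 10 genes of pyruvate entry and 1 of 20 oxidative phosphorylation genes, beside 13.1% of all tested genes. The 10 genes of the HIF machinery (such as Arnt, Vhl and Hif1an) had it for 1, and 19 other isoforms of glycolytic enzymes had it for 5. None of these 5 lists held a gene that was 2-fold below both other replicates in both RA groups.

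**Figure D5:**
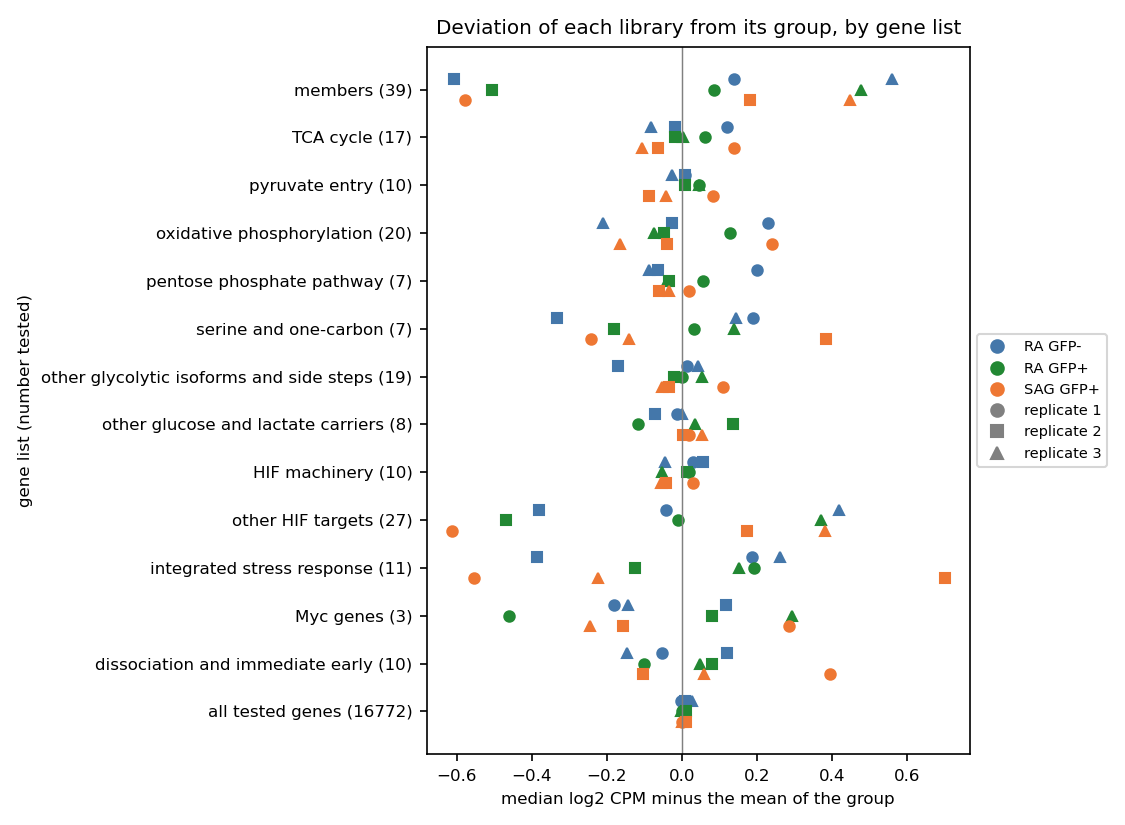
Each point is the median, over the genes of a list, of log2 CPM minus the mean of the library's group, with colour for the group and shape for the replicate number. For members, RA replicate 2 and SAG GFP+ replicate 1 lie between -0.61 and -0.51, other HIF targets lie alike, and the TCA cycle and the HIF machinery lie within 0.14 of 0.

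Between sorts under RA, the other glycolytic isoforms had 3 of 19 higher and 2 lower, and the other carriers 2 of 8 higher and 0 lower (also 0 lower at an unadjusted p under 0.05 and by DESeq2), beside 8.49% higher and 8.43% lower of all tested genes. Eno3, the muscle-type enolase, was higher in GFP+ cells (log2 fold change 1.56, SE 0.175, adjusted p = 0.000157), with 75.6 to 82.2 CPM against 23.4 to 31.9 CPM. Ldhc, the testis-type subunit, had 0 counts in all RA GFP+ libraries (up to 0.0357 CPM at 3 counts over the group) against 0.459 to 0.572 CPM in RA GFP- (adjusted p = 0.00287). Emb, a partner protein of lactate carriers, was higher in GFP+ cells (1.42, SE 0.148, adjusted p = 9.18e-05) and lower under SAG (-1.44, SE 0.148, adjusted p = 5.04e-05), the same directions as Slc16a1. Bsg of the same list was not called without the block between sorts (0.49, adjusted p = 0.114) or between media (-0.48, adjusted p = 0.0959). With the block it was higher in GFP+ cells (0.49, adjusted p = 0.00124). Slc2a12, a glucose carrier, was higher under SAG (1.91, SE 0.355, adjusted p = 0.00238). Hkdc1, a hexokinase-like gene, read 2.12 to 7.12 CPM in RA GFP+ and at most 0.0375 CPM in SAG GFP+ (adjusted p = 0.000162), and Gpd1l was higher in SAG GFP+ (0.66, adjusted p = 0.0129).

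Of the other HIF targets, 3 of 27 were higher and 1 lower in GFP+ cells under RA, beside 8.49% and 8.43% of all tested genes. With the block 7 were higher and 8 lower, beside 16.1% of all tested genes in each direction. Without the block the called genes were led by Cited2 (log2 fold change 1.5, SE 0.182, adjusted p = 0.00026), a transcriptional cofactor that limits HIF activity, and Hmox1 (-0.67, SE 0.132, adjusted p = 0.00483), heme oxygenase. Under SAG 2 were higher, led by Vldlr (2.04, SE 0.606, adjusted p = 0.029), and 3 were lower, beside 9.78% and 14.8% of all tested genes. The HIF machinery had 0 of 10 called between sorts by edgeR without a block and by DESeq2 (1 at an unadjusted p under 0.05). With the block 1 was higher in GFP+ cells, Hif3a (0.60, adjusted p = 0.00908). Between media 1 was called in each direction, Arnt2 (0.83, adjusted p = 0.0225) and Hif1an (-0.52, adjusted p = 0.0323). Of 17 TCA cycle genes, 0 were called in either comparison by edgeR without a block or by DESeq2 (2 had an unadjusted p under 0.05 between sorts and 0 between media), and 3 were lower in GFP+ cells with the block. Of pyruvate entry, 3 of 10 were lower in GFP+ cells (5 with the block), led by Pdha1 (-0.49, SE 0.107, adjusted p = 0.00835), and 2 were higher under SAG, led by Pdp1 (1.04, SE 0.213, adjusted p = 0.00426).

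Markers of other cell types moved with the low libraries in part. SAG GFP+ replicate 1 had summed levels of 229.6 CPM for the 6 pluripotency markers, against 63.4 and 71.6 CPM in replicates 2 and 3, mostly Pou5f1 at 170.8 against 37.4 and 39.3 CPM. Its 6 endoderm markers summed to 55.4 CPM against 9.10 and 10.8 CPM, mostly Cdx2 at 47.5 CPM, while Afp was at 0. Sox17 read only 0.896 CPM in that library, and Gata4 read 4.07 CPM against 4.71 CPM in replicate 3. The 6 floor plate markers summed to 749 CPM there and 790.0 to 864 CPM in the other SAG GFP+ libraries. Between sorts, the endoderm markers summed to 63.4 to 77.0 CPM in RA GFP+, mostly Sox17 (34.65 to 55.3 CPM), and 7.54 to 13.9 CPM in RA GFP-. The 6 mesenchyme markers summed to 41.3 to 48.4 CPM in RA GFP+, 6.955 to 8.12 CPM in RA GFP- and 12.6 to 21.3 CPM in SAG GFP+. In both RA groups replicate 2 had the lowest pluripotency sum (681 of 681 to 1146 CPM, and 37.4 of 37.4 to 47.9 CPM) and the highest sum of 5 neuronal markers (381 of 267 to 381 CPM, and 81.4 of 70.0 to 81.4 CPM). In RA GFP+ this rested on Tubb3 (39.2 CPM), since Stmn2 was lowest in replicate 2 and Elavl3, Dcx and Map2 were highest in replicate 3. SAG GFP+ replicate 1 had the lowest neuronal sum of its group (309 against 390.3 and 433 CPM). Of 4 blood markers, Hbb-bt was at 0 and Hba-a1 and Ptprc at or near 0 in all libraries, while Gata1 read 1.22 to 1.87 CPM in RA GFP-. The part of these cell types in the replicate pattern and in the differences between groups was not tested.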

How the data were processed

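The authors deposited whole-number counts per Ensembl gene, 1 column per library, from poly(A) RNA and a directional kit per the labels' protocols. Bowtie2 2.3.4.1, featureCounts (Subread 1.6.2), Trim Galore 0.5.0 and the build GRCm38 are named per the submitters' processing notes. Not given in the sources used here are the annotation release, the strand setting and how multi-mapping reads were counted. Symbols came from the GENCODE M21 annotation of GRCm38 (54409 of 54532 IDs) and promoter windows from RefSeq. Near-identical copies are other annotated genes that BLAST matched at 95% identity or more over at least 200 bases, and values of genes with such copies or overlaps are uncertain.

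Tests used edgeR 4.0.16 in R 4.3.3, tested on simulated data. All 9 libraries entered 1 fit of group means after TMM scaling. The low-count filter was filterByExpr at 10 counts, which kept 16772 genes. Quasi-likelihood p-values were adjusted after Benjamini and Hochberg and called under 0.05. The SE is the log2 fold change divided by the square root of F. Log2 CPM used a prior count of 2. Same-numbered RA libraries were treated as pairs because the deviations of each pair from the group means correlated above 0.1. DESeq2 1.42.0, other scalings, filters, blocks and left-out libraries were alternatives. The members, lists and tests were chosen with earlier results of these data known. Genes with values in every library were Ldha, the 10 members with the largest and the 5 with the smallest spread, and in each comparison the called members and the 2 just outside the threshold. Of each other list, the called gene with the smallest adjusted p in each direction was named, except 1 that is not reported here. The lists are TCA cycle, pyruvate entry, oxidative phosphorylation, pentose phosphate pathway, serine and one-carbon, other glycolytic isoforms, other carriers, HIF machinery, other HIF targets, integrated stress response, Myc genes and immediate early genes.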

Additional observations from a re-analysis of the deposited data

How the results depend on the processing

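None of the 11 single-gene fold changes or the median ratios that were recomputed changed direction under the alternatives run for them. The balance of calls did shift in places. Members called between media were 1 higher and 2 lower, but 4 and 3 with the block in all 9 libraries. They were 9 and 6 without a filter on low counts. All genes called between sorts were 1424 higher and 1414 lower, but 1306 and 1537 with library totals only. Ldhb and Epas1 (between sorts) passed in all 19 alternatives, with adjusted p up to 0.0352 and 0.0296. With the replicate number as a block, the genes called between sorts rose from 2838 to 5240 (members from 4 to 22) in the 6 RA libraries. With all 9 libraries they rose to 3811 (members to 7). For SAG GFP+ and RA GFP+, replicates 1 and 3 met the mark of 0.1 used for pairs, but replicate 2 did not (r = 0.111, -0.082 and 0.182). Between these 2 groups the block gave 7 members with all libraries, in place of 3, beside 5368 of 16772 genes. With the libraries of the 2 groups it gave 5 members, beside 4552 of 15815 genes. Epas1 missed the threshold in that fit of the 2 groups (adjusted p = 0.0763). Without a filter on low counts, 7 members passed between sorts, beside 3607 of 30418 genes, and 15 between media, beside 4799 of 30418 genes. Leaving out replicate number 2 in all groups gave 810 genes and 2 members (Ldhb and Epas1) between sorts, and 1435 of 4117 genes and 1 member between media, Slc2a1, which is none of the 3 called with all libraries. Leaving out the 3 libraries low in Ldha, chosen after seeing the data, gave 1565 genes and 3 members between sorts, and 2829 genes and 3 members between media, which again held none of the 3 genes called with all libraries. Leaving out each library in turn gave 1783 (without RA GFP+ replicate 2) to 3368 genes and 3 to 5 members between sorts, and 2747 to 4972 genes and 1 to 7 members between media. At 3-fold in place of 2-fold, replicate 2 was below both others for 5 members in RA GFP- and 3 in RA GFP+. The cause of these shifts was not tested. All members but Car9 had counts in every library.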

Other observations

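Of 11 genes of the integrated stress response, the cell's answer to amino acid shortage and other stress, 7 were higher and 1 was lower in SAG GFP+ than in RA GFP+, beside 9.78% higher and 14.8% lower of all tested genes (edgeR's quasi-likelihood test with Benjamini-Hochberg adjustment over all tested genes), and 3 were lower in RA GFP+ than in RA GFP-, beside 8.43% of all tested genes (7 lower and 1 higher with the replicate block, beside 16.1% in each direction). Slc7a5, the large neutral amino acid carrier, read 130.3, 98.7 and 173 CPM in RA GFP+ against 259.6, 572 and 305 CPM in SAG GFP+ (log2 fold change 1.5, SE 0.302, adjusted p = 0.0039). Cebpb was the gene that was lower under SAG (-1.79, SE 0.209, adjusted p = 0.000115), and Trib3 led those lower in GFP+ cells under RA (-1.87, SE 0.490, adjusted p = 0.0212). Psat1, an enzyme of serine synthesis, was lower in GFP+ cells under RA (-1.09, SE 0.240, adjusted p = 0.00882) and higher under SAG (1.77, SE 0.244, adjusted p = 0.000346), and 4 of the 7 serine and one-carbon genes were higher under SAG. SAG GFP+ replicate 2 was the highest library of its group for both Slc7a5 and Psat1. Replicate 2 was the lowest library in both RA groups for 6 of the 11 stress response genes, beside 13.1% of all tested genes.

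Immediate early genes, which cell dissociation can induce, had 3 of 10 higher and 1 lower in RA GFP+ than in RA GFP-, and 5 lower in SAG GFP+ than in RA GFP+. Over all tested genes 8.49% were higher and 8.43% lower between sorts, and 14.8% were lower under SAG. With the block 5 immediate early genes were higher and 1 lower, beside 16.1% of all tested genes in each direction. Jun was higher between sorts (1.52, SE 0.227, adjusted p = 0.000942), Dusp1 was lower (-1.10, SE 0.174, adjusted p = 0.0013), and Egr1 was lower under SAG (-3.14, SE 0.313, adjusted p = 3.94e-05). Of the Myc genes, Mycl was lower in GFP+ cells under RA (-0.92, adjusted p = 0.011) and higher under SAG (1.45, adjusted p = 0.00052), while Myc was lower under SAG (-1.11, adjusted p = 0.0301). In the pentose phosphate pathway Tkt was higher under SAG (0.92, adjusted p = 0.00183) and Taldo1 lower (-0.96, adjusted p = 0.00324). Of 20 oxidative phosphorylation genes, only Uqcrc1 was lower in GFP+ cells under RA (-0.44, adjusted p = 0.0388). With the block 7 of them were lower, beside 16.1% of all tested genes. Cox5a led 2 that were lower under SAG (-0.61, adjusted p = 0.0366), beside 14.8% of all tested genes.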
